A study of Mus musculus with 6 samples.

Results

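The genes described here encode the constant parts of mouse antibodies: the kappa light chain (Igkc), the heavy chain classes IgM (Ighm), IgD (Ighd), IgG1 (Ighg1), IgG2b (Ighg2b), IgG3 (Ighg3) and IgA (Igha), and the joining chain (Igj, now called Jchain). Their RNA was measured in flow-sorted optic nerve microglia, the macrophages that live in nervous tissue, in a study of Nf1 optic glioma. The mice were C57BL/6 and 3 months of age. The members were taken by gene name, and the set was chosen on levels already seen in the same FMC and FM libraries. Of the 8 listed names 6 have a row among the 37447 genes of the table, and Ighd and Igha are not analysed here. All 6 passed the filter of the fit across all genes, which asks for at least 1 FPKM in at least 2 libraries. FPKM is a count of sequenced fragments scaled to the length of the transcript and to all mapped fragments of the library, so it gives a level per length and relative to the rest of that library.

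The FM group had 2 libraries from mice with 1 floxed and 1 mutant Nf1 allele (Nf1 flox/mut): a male library, FM 1, and a female one, FM 2, per the labels. The FMC group had 4 libraries from mice with the same Nf1 alleles and, in addition, GFAP-Cre: FMC 1 and FMC 4 from females, and FMC 2 and FMC 3 from males. Both groups thus share the Nf1 alleles and differ in the transgene. GFAP-Cre places Cre recombinase under a promoter active in astroglial cells, which are not the microglia sorted here. The labels call the libraries biological replicates and do not say how many mice each one pools.

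An antibody is built from a pair of identical heavy chains and a pair of identical light chains. Each chain joins a variable part, made by recombination of gene segments in a developing B cell, to a constant part. A B cell first makes IgM and IgD, and can later switch to IgG, IgE or IgA by deleting the heavy chain constant genes in between. Plasma cells, the secreting descendants of B cells, carry very large amounts of these transcripts, and the joining chain links IgM or IgA units into polymers. The libraries are bulk samples, so more cells of another type and more RNA per such cell cannot be told apart.

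On chromosome 12 of the mm9 build the heavy chain rows follow each other from Ighm (114659077 to 114660941) through Ighg3 (114597875 to 114599443), Ighg1 (114567186 to 114568734) and Ighg2b (114544599 to 114546144) to Ighg2c (114523535 to 114527141) and Ighe (114509390 to 114511457). Igkc lies on chromosome 6 (70676428 to 70676751) and Igj on chromosome 5 (88949536 to 88956916). The Ighm, Ighg1, Ighg2b and Ighg3 rows span 1865, 1549, 1546 and 1569 bases. The coding exons of the secreted forms in GENCODE M21, an annotation of another build, span 1861, 1545, 1542 and 1565 bases, so these rows have no room for the exons of the membrane forms. The Igkc row spans 324 bases, against 320 coding bases in that annotation. It holds little more than the coding exon. The libraries were selected for fragments of 300 to 500 bases, per the labels, which is about the length of that row. Its FPKM may depend on how so short a row was scaled, and this was not tested. Igkc is therefore compared between libraries here, and its ratio to other genes is read only as a change between libraries.

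Whether a read can be given to 1 IgG class depends on how far the classes differ in sequence. The first 90 bases of the first constant exon are shown for the 4 IgG genes, 5′ to 3′ in lower case, with capitals at the 29 positions where the 4 do not all have the same base.
Ighg1: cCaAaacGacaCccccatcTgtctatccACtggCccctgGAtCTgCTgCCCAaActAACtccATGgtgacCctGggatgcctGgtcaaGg
Ighg2b: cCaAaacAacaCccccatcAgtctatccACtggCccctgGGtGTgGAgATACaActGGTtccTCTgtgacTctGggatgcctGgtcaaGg
Ighg2c: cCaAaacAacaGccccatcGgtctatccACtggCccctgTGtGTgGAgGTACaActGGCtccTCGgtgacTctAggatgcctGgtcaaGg
Ighg3: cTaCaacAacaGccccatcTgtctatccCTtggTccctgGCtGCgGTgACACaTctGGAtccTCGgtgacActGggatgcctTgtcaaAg
Over their aligned coding bases Ighg2b and Ighg2c were the closest of the 6 pairs of IgG genes, with 85.9% identical bases and a longest identical run of 78 bases. The other pairs of IgG genes had 75.3% to 77.4% identical bases and longest runs of 28 to 41 bases. Against Ighm the IgG genes had at most 59.1% identical bases and runs of at most 15. Reads of Ighg2b and Ighg2c can thus be shared over short stretches, and the 4 IgG values are less certain than the division between IgM and IgG.

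The hinge exon differs in length between the classes. It is shown whole, with the cysteine codons of the reading frame in capitals. Such cysteines join the heavy chains to each other.
Ighg1: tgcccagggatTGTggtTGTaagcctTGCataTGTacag
Ighg2b: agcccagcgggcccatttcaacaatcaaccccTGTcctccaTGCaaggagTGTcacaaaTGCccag
Ighg2c: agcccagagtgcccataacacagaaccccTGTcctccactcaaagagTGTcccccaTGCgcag
Ighg3: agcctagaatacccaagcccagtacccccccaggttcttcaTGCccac
The hinge exons have 39 bases in Ighg1, 66 in Ighg2b, 63 in Ighg2c and 48 in Ighg3, with 4, 4, 3 and 1 cysteine codons. All of these sequences are those of the GENCODE M21 transcripts, matched by Ensembl gene identifier.

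Igkc was among the most abundant transcripts of these sorted cells. It stood at 3363 FPKM in FM 1, 2585 FPKM in FM 2 and, from FMC 1 through FMC 4, at 49907, 10619.7, 6236 and 16959 FPKM. Each FMC library exceeded the FM pair, and the FMC libraries spanned an 8.00-fold range. Among 37021 genes with a value in every library, Igkc ranked 1 in FMC 1, FMC 2 and FMC 4, 4 in FMC 3 and FM 1, and 19 in FM 2. These ranks compare genes and so carry the doubt about the short row. Igkc held 7.43% of the summed FPKM of FMC 1, and between 0.426% and 2.64% in the other 5 libraries. FM averaged 2974 ± 550.3 FPKM (SD, n = 2). FMC averaged 20930.4 ± 19813 FPKM (SD, n = 4), or 11272 ± 5391 FPKM (SD, n = 3) without FMC 1. On the log2(FPKM + 1) scale the difference was 2.38 ± 1.06 (SE of the limma fit), and 1.82 to 2.82 with 1 library left out.

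The joining chain gene Igj followed Igkc at a far lower level. It was at 0.878 FPKM in FM 1, 1.25 FPKM in FM 2 and, from FMC 1 through FMC 4, at 30.7, 12.3, 3.13 and 9.62 FPKM. The groups did not overlap here either, and FMC 1 was again highest. FM averaged 1.06 ± 0.26 FPKM (SD, n = 2) and FMC 13.9 ± 11.8 FPKM (SD, n = 4), and the log2 difference was 2.51 ± 0.89 (SE). Set against Igkc it varied less: per 10000 FPKM of Igkc there were 2.61 and 4.82 FPKM of Igj in the FM pair, and 5.02 to 11.6 FPKM across FMC. Pearson's r of Igj with Igkc was 0.963 on the log2(FPKM + 1) scale, over 6 libraries that include the group difference.

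**Figure D1:**
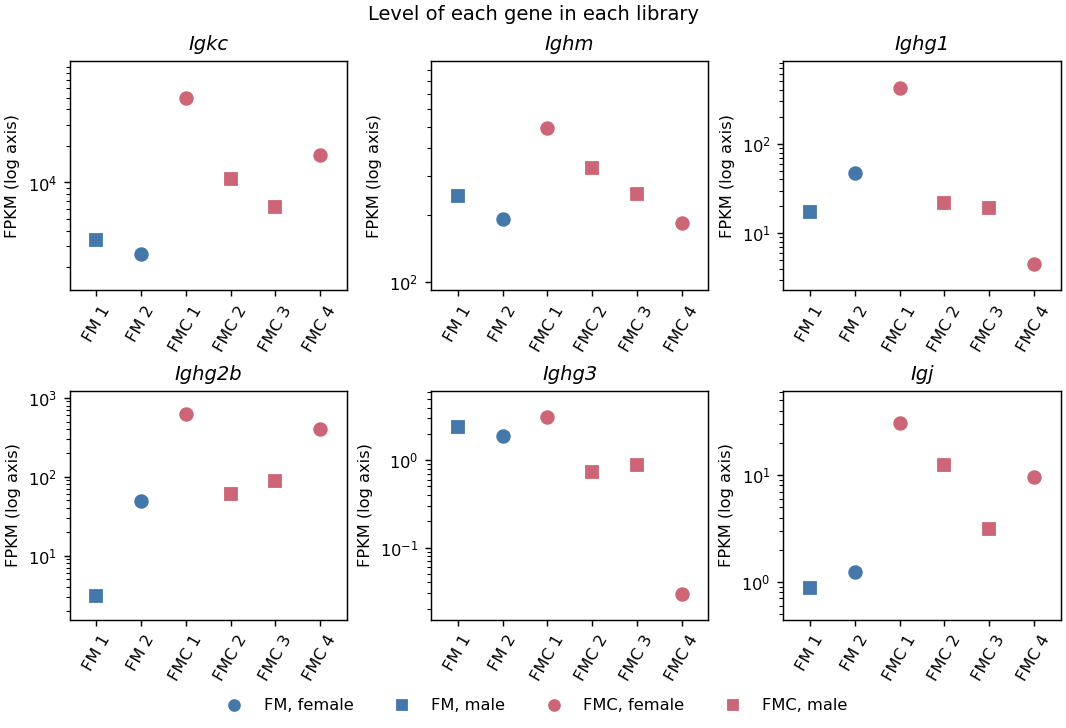
FPKM of the 6 genes in each of the 6 libraries, each on its own log axis; colour gives the group and the symbol the labelled sex. FMC 1 is the highest library in all 6 panels, and for Igkc, Ighg2b and Igj the groups do not overlap.

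Ighm, the constant gene of IgM, varied least of the heavy chain genes. It was at 243 FPKM in FM 1, 193 FPKM in FM 2 and, from FMC 1 through FMC 4, at 492, 325, 249 and 184 FPKM. The groups overlapped, since FMC 4 lay below both FM libraries. FM averaged 218 ± 35 FPKM (SD, n = 2) and FMC 313 ± 133 FPKM (SD, n = 4). The log2 difference of 0.43 ± 0.52 (SE) was smaller than its error.

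Ighg2b, the constant gene of IgG2b, had the largest log2 difference of the 6 when all libraries were used. It was at 3.04 FPKM in FM 1, 49.6 FPKM in FM 2 and, from FMC 1 through FMC 4, at 616, 60.6, 89.4 and 403 FPKM. No FMC library fell below an FM library, but FM 2 and FMC 2 lay close together and the FM pair itself differed far more than for Ighm. FM averaged 26.3 ± 32.9 FPKM (SD, n = 2) and FMC 292 ± 266 FPKM (SD, n = 4), with a log2 difference of 3.75 ± 1.17 (SE). The log2 difference was 1.93 without FM 1 and 5.58 without FM 2, so its size rests on which FM library it is set against.

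The other IgG genes did not follow this order. Ighg1 was at 17.2 FPKM in FM 1, 46.8 FPKM in FM 2 and, from FMC 1 through FMC 4, at 423, 21.6, 19.1 and 4.58 FPKM. FMC 1 stood at 28.0 times the mean of the other FMC libraries. FMC 2 and FMC 3 lay inside the FM range, and FMC 4 lay below it. FM averaged 32.0 ± 20.9 FPKM (SD, n = 2) and FMC 117 ± 204 FPKM (SD, n = 4), or 15.1 ± 9.19 FPKM (SD, n = 3) without FMC 1. The log2 difference was 0.13 ± 1.43 (SE), and -1.11 without FMC 1. Ighg3 was the lowest of the 4 classes measured, at 2.37 FPKM in FM 1, 1.91 FPKM in FM 2 and, from FMC 1 through FMC 4, at 3.11, 0.739, 0.869 and 0.0296 FPKM. The groups overlapped because FMC 1 was the highest library. FM averaged 2.14 ± 0.33 FPKM (SD, n = 2) and FMC 1.19 ± 1.33 FPKM (SD, n = 4), with a log2 difference of -0.70 ± 0.71 (SE).

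Among the 6 genes, 5 had a higher mean log2 value in FMC, and the median difference was 1.41, against a median of -0.12 over all 18208 genes tested. For 3 of the 6 the lowest FMC library exceeded the higher FM library, which held for 4.34% of all genes tested, and for 0 of the 6 the order was the opposite, which held for 8.22%. The limma fit across all genes called 0 of the 6 at an adjusted p under 0.05, against 0.0275% of all genes. At an unadjusted p under 0.05, 2 of the 6 were higher in FMC, against 1.14% of all genes. The genes were chosen on this contrast, so the counts are a description. Some library titles hold dates that lie 1 day from those of the other group. For one such pair the log2 difference of FMC 2 from FM 1 was 1.66 for Igkc, 3.93 for Ighg2b and 2.83 for Igj. The difference of FMC 3 from FM 2, a male and a female library, was 1.27, 0.84 and 0.88 for the same genes. Without FMC 1 the FMC mean was 3.79 times the FM mean for Igkc, 6.99 times for Ighg2b, 7.87 times for Igj and 0.472 times for Ighg1.

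The isotype mix is the share of each class in the summed FPKM of the 4 heavy chain genes, and is not moved by a factor that scales a whole library. The sum itself was 265 FPKM in FM 1, 291 FPKM in FM 2 and, from FMC 1 through FMC 4, 1534, 408, 359 and 591 FPKM. Ighm made up 91.5% of it in FM 1 and 66.2% in FM 2, and 32.1%, 79.7%, 69.5% and 31.1% in FMC 1 to FMC 4. FMC 1 and FMC 4 thus lay well below the FM range, and FMC 2 and FMC 3 lay inside it. The mean share was 78.9 ± 17.9% (SD, n = 2) in FM and 53.1 ± 25.2% (SD, n = 4) in FMC. The difference of -25.8 percentage points was about as large as the spread within FMC. It was -13.1 points without FM 1 and -38.4 points without FM 2.

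Ighg2b was the largest IgG share in all libraries but FM 1. It was 1.15% in FM 1 and 17.1% in FM 2, and 40.1%, 14.9%, 24.9% and 68.1% in FMC 1 to FMC 4. The mean shares were 9.10 ± 11.25% (SD, n = 2) and 37.0 ± 23.2% (SD, n = 4), with groups that overlapped through FMC 2. Ighg1 held 6.47% and 16.1% in FM, and 27.6%, 5.29%, 5.33% and 0.775% in FMC 1 to FMC 4. FMC 1 and FMC 4 thus had nearly the same share of IgM but a different IgG: the ratio of Ighg2b to Ighg1 was 1.46 in FMC 1 and 87.9 in FMC 4. Ighg3 stayed under 1% of the sum in all 6 libraries, at 0.893% and 0.655% in FM and at most 0.242% in FMC.

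**Figure D2:**
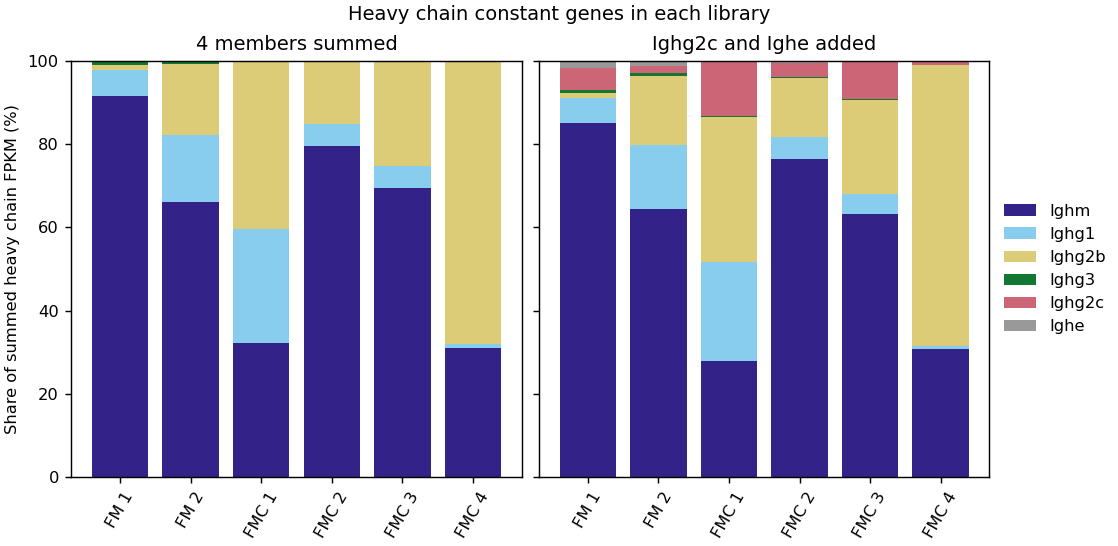
Share of each heavy chain constant gene in their summed FPKM, in percent, 1 bar per library; on the left for Ighm, Ighg1, Ighg2b and Ighg3, on the right with Ighg2c and Ighe added to the sum. Ighm holds 91.5% of the bar of FM 1 and 31.1% of that of FMC 4, where Ighg2b fills 68.1%.

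Ighg2c, the IgG2 gene that C57BL/6 mice carry in place of Ighg2a, and Ighe, the gene of IgE, are not among the 8 names. Unlike the other IgG rows, the Ighg2c row spans 3607 bases, against 1541 for the coding exons of its GENCODE M21 transcript. It thus has room for further exons, and how this bears on its FPKM and on shares that include it was not tested. Ighg2c was at 14.8 FPKM in FM 1, 4.78 FPKM in FM 2 and, from FMC 1 through FMC 4, at 233, 14.7, 36.0 and 5.31 FPKM. It was highest in FMC 1, as the 6 genes were, but FMC 2 and FMC 4 lay within the FM range. Ighe was at 4.76 and 3.83 FPKM in the FM pair, against 6.57e-07 to 1.76 FPKM across FMC. Another row with the name Ighe holds no values. Neither passed the limma fit across all genes (Ighg2c log2 difference 1.67 ± 1.25 SE, adjusted p = 0.993; Ighe -1.88 ± 0.67 SE, adjusted p = 0.765). With both in the sum Ighm held 27.9% in FMC 1 and 30.8% in FMC 4, and its mean difference between the groups was -25.2 percentage points. The lambda constant genes Iglc2 and Iglc3 were low in all libraries. Iglc2 was at 5.14 and 30.5 FPKM in the FM pair, against 1.59 to 8.57 FPKM across FMC (limma adjusted p = 0.993). Iglc3 was at 4.50 and 0.117 FPKM in the FM pair, against 1.93 to 21.1 FPKM across FMC (adjusted p = 0.993). Igkc made up at least 98.8% of the summed FPKM of Igkc, Iglc2 and Iglc3 in every library. This share carries the doubt about the short Igkc row, and no other lambda gene is in it. The 3 lambda variable rows (Iglv) summed to 42.0 and 155 FPKM in the FM pair. From FMC 1 through FMC 4 they summed to 522, 11.4, 70.3 and 118 FPKM.

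Light and heavy chain genes did not keep a fixed proportion across the libraries. The ratio of Igkc to the summed heavy chain FPKM was 12.7 in FM 1 and 8.88 in FM 2, and 32.5, 26.0, 17.4 and 28.7 in FMC 1 to FMC 4. The groups did not overlap. The mean ratio was 10.8 ± 2.7 (SD, n = 2) in FM and 26.2 ± 6.4 (SD, n = 4) in FMC. The variable segments have rows of their own. The 103 Igkv rows summed to 3540 and 2913 FPKM in the FM pair and, from FMC 1 through FMC 4, to 42529, 8289, 4459 and 17687 FPKM, in the same order of libraries as Igkc. Their sum was 1.05 and 1.13 times Igkc in the FM pair and 0.715 to 1.04 times across FMC, with no overlap. The 113 Ighv rows summed to 5163 and 5623 FPKM in the FM pair and, from FMC 1 through FMC 4, to 27487, 6034, 4679 and 4044 FPKM, where FMC 1 stood well above the FM pair, FMC 2 slightly above it and the other FMC libraries below it. In FMC 4 a single Igkv row held 60.1% of the Igkv sum, against 15.5% to 29.5% in the other libraries. The 5 kappa joining, 4 heavy joining and 20 diversity segments are listed at 0 in all libraries.

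**Figure D3:**
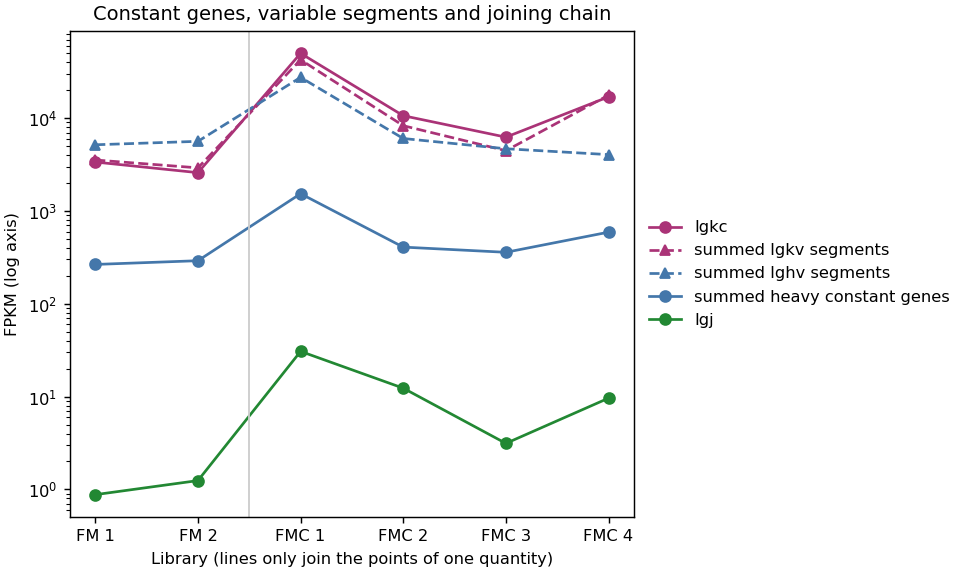
FPKM on a log axis of Igkc, the summed Igkv segments, the summed Ighv segments, the summed heavy chain constant genes and Igj in each library; lines only join the points of 1 quantity, and the grey line divides FM from FMC. The Igkv sum follows Igkc, at 0.715 to 1.13 times its level, while the Ighv sum of FMC 4 (4044 FPKM) lies below both FM libraries.

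The choice of the genes did not use the sex label, but the levels of these 6 libraries were in view when it was made. The comparisons by sex are thus not independent of that choice. Ighg2b was higher in the female than in the male libraries of the same genotype: 49.6 against 3.04 FPKM in FM, and 616 and 403 against 60.6 and 89.4 FPKM in FMC. With genotype kept in the model the log2 difference, female minus male, was 3.04 ± 0.41 (SE). It did not pass across all genes (limma, adjusted p = 0.179; unadjusted p = 7.8e-05). With 1 library left out the difference stayed between 2.74 and 3.30, and over all 12 alternatives the adjusted p ran from 0.137 to 0.660. The other 5 genes had log2 differences of -0.06 to 1.26 with limma adjusted p of at least 0.728, and of at least 0.645 over the alternatives. Ighg1 had a difference of 1.26, which was -0.51 without FMC 1 and 3.06 without FMC 4. With 1 library left out Igkc ran from 0.44 to 1.84 and Igj from 0.37 to 1.34. The scaling of the libraries mattered as well. Under quantile normalization the difference was -0.03 for Igkc, -0.82 for Ighm, 0.75 for Igj and 2.58 for Ighg2b. For sex, limma called 0 of the 6 genes and 0% of all genes at an adjusted p under 0.05. At an unadjusted p under 0.05 it gave 1 of the 6 higher in females, against 5.55% of all genes.

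The summed IgG share also divided the libraries by sex. It was 33.8%, 67.9% and 68.9% in the female libraries FM 2, FMC 1 and FMC 4, and 8.51%, 20.3% and 30.5% in the male libraries FM 1, FMC 2 and FMC 3. The means were 56.9 ± 20.0% and 19.8 ± 11.0% (SD, n = 3 each). An exact two-sided permutation test gave p = 0.1, the smallest that 3 libraries against 3 allow. It could thus not pass the threshold of the limma fits whatever the values, and it did not keep genotype. The test therefore cannot decide whether the share differs by sex. With Ighg2c and Ighe in the sum the sexes overlapped, since FM 2 was at 34.4% and FMC 3 at 36.8% (exact two-sided permutation p = 0.2). The split was noticed in these values before it was tested, so the permutation p-values are given as a description. Over the 4 quantities so tested, the share of Ighg2b and the ratio of Igkc to heavy chains included, the Benjamini-Hochberg adjusted permutation p was at least 0.267.

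**Figure D4:**
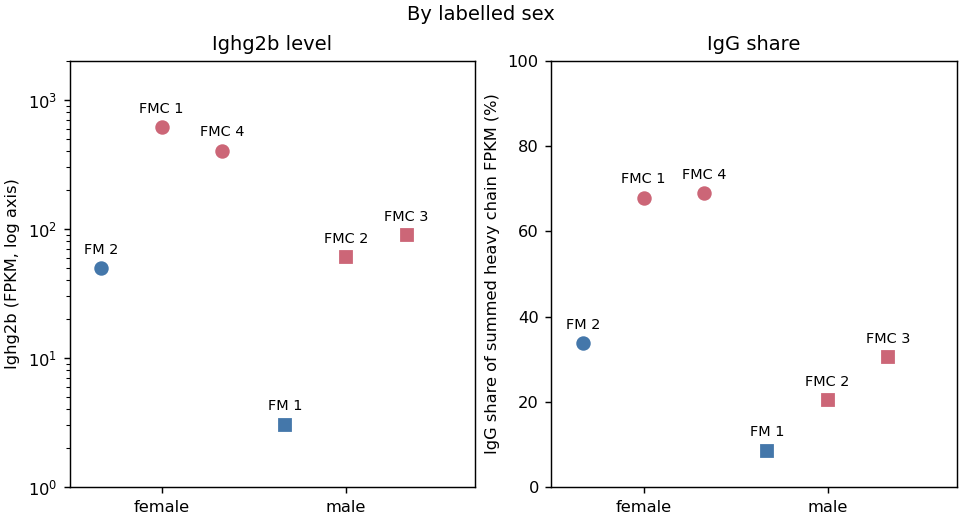
Ighg2b in FPKM on a log axis (left) and the IgG share of the summed heavy chain FPKM in percent (right), by labelled sex; blue is FM and red is FMC, circles are female and squares male. Each female library lies above the male libraries of its genotype in both panels.

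The markers of B cells did not all follow the order of libraries seen for Igkc. The B cell surface gene Cd79a, a signalling chain of the B cell receptor, was at 0.742 and 1.60 FPKM in the FM pair and, from FMC 1 through FMC 4, at 17.9, 4.88, 6.60 and 9.54 FPKM. Ms4a1, which encodes CD20, was at 0.656 and 2.08 FPKM in the FM pair and, from FMC 1 through FMC 4, at 7.19, 0.328, 1.91 and 0.0885 FPKM. FMC 4, with the second highest Igkc, was the lowest library for Ms4a1. Cd79a was the only 1 of the 13 tested markers with each FMC library above the FM pair. Cd79b went the other way, at 25.4 and 98.4 FPKM in the FM pair and, from FMC 1 through FMC 4, at 45.8, 2.33, 7.96 and 26.6 FPKM. Its log2 difference was -1.87 ± 1.05 (SE), and it was chosen after its values were seen. Of 16 B cell markers, tested or not, 9 were highest in FMC 1, against 15.4% of all genes tested. The 9 include Spib, which did not pass the filter. No marker was listed at 0 in all libraries. Of the 13 tested, 8 had a higher mean log2 value in FMC, with a median log2 difference of 0.31. Limma called 0 (1 at an unadjusted p under 0.05, higher in FMC). The summed level of the list was 294 to 704 FPKM in FM and 204 to 661 FPKM in FMC. Cd37 alone was at 192 and 537 FPKM in the FM pair and at 138 to 578 FPKM across FMC, so the sum mostly reflects this gene.

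Plasma cell genes were measured from a list of 20 names, of which 19 have a row and 15 were tested. Of these 7 had a higher and 8 a lower mean log2 value in FMC, and the median log2 difference was -0.01. Limma called 0 (1 at an unadjusted p under 0.05, higher in FMC). Prdm1, which encodes the transcription factor Blimp-1, was at 14.7 and 11.8 FPKM in the FM pair, against 7.53 to 13.5 FPKM across FMC. Xbp1, a regulator of the secretory apparatus, was at 61.4 and 120 FPKM in the FM pair, against 37.9 to 118 FPKM across FMC, and Irf4, a transcription factor gene, ranged from 1.63 to 4.77 FPKM over both groups. Macrophages also express Prdm1, Xbp1 and Irf4. Among the more restricted genes, chosen after their values were seen, Sdc1, which encodes CD138, never passed 1.39 FPKM. Tnfrsf17, which encodes the plasma cell receptor BCMA, was at 1.57 and 18.6 FPKM in the FM pair and, from FMC 1 through FMC 4, at 30.1, 0, 0.413 and 2.98 FPKM. Other genes of the list, also chosen after their values were seen, were high in FMC 1, in FMC 2 or in both. Derl3, a gene of protein quality control in the endoplasmic reticulum, was at 0.153 and 0.0264 FPKM in the FM pair and, from FMC 1 through FMC 4, at 6.90, 24.8, 0.0926 and 0.126 FPKM. Pou2af1, which encodes a B cell transcriptional coactivator, was at 0.602 and 0.369 FPKM in the FM pair and at 0.843 to 2.56 FPKM across FMC, with no overlap, but did not pass the filter. Txndc5 and 2010001M09Rik, now called Mzb1, were highest in FMC 1, at 25.01 and 8.93 FPKM. In the FM pair Txndc5 was at 2.61 and 7.45 FPKM, and 2010001M09Rik at 4.66 and 0.201 FPKM. From FMC 2 through FMC 4 Txndc5 was at 0.870, 3.25 and 5.13 FPKM. In the same libraries 2010001M09Rik was at 0, 0.0387 and 0.140 FPKM, below both FM libraries. Of the 19 genes with a row, tested or not, 5 were highest in FMC 1, against 15.4% of all genes tested. The 5 include Sdc1, which did not pass the filter. The summed level of the list was 712 to 1007 FPKM in FM and 632 to 1025 FPKM in FMC. That sum mostly reflects its most abundant genes, such as Hsp90b1 at 269 to 491 FPKM and Hspa5 at 153 to 244 FPKM over both groups. It says little about the more restricted genes.

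Of the genes of class switching, Ung, which encodes a uracil DNA glycosylase, stayed under 1 FPKM, between 0 and 0.427 FPKM. Of the 9 genes of this list that were tested, 7 had a higher mean log2 value in FMC. Limma called 0 of them, also at an unadjusted p under 0.05. In the list of V(D)J recombination, Rag1 was between 0.146 and 4.53 FPKM, Rag2 between 0.0338 and 2.47 FPKM and Dntt between 0.0771 and 2.41 FPKM. None of the 3 was highest in FMC 1, and limma called 0 of the 4 tested, also at an unadjusted p under 0.05. Among receptors of antibodies, Pigr, which carries polymeric IgA and IgM across epithelia, and Fcamr were at most 1.06 and 0.286 FPKM. Faim3, an IgM receptor gene of lymphocytes, was at 12.8 and 14.0 FPKM in the FM pair and, from FMC 1 through FMC 4, at 15.2, 8.80, 10.5 and 1.24 FPKM (adjusted p = 0.994). Limma called 0 of the 8 receptor genes tested, 4 of which had a higher mean log2 value in FMC. Of the 8, 0 had an unadjusted p under 0.05 in the limma fit.

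The 6 genes whose values most resembled those of Igkc, among 8122 with a mean of at least 5 FPKM that are not antibody genes, small RNAs or predicted genes, were Cblb, Mov10, Sos2, Pim2, Prr5l and Slc17a5. Pearson's r on the log2(FPKM + 1) scale was between 0.975 and 0.989 over the 6 libraries, given as a description. Cblb, which encodes a ubiquitin ligase, was at 12.6 and 11.3 FPKM in the FM pair and, from FMC 1 through FMC 4, at 23.0, 14.8, 13.9 and 18.3 FPKM. Pim2, a kinase gene that is also in the plasma cell list, was at 0.837 and 0.709 FPKM in the FM pair and, from FMC 1 through FMC 4, at 20.7, 7.85, 1.90 and 9.24 FPKM (log2 difference 2.29 ± 0.91 SE, limma adjusted p = 0.826). All 6 were highest in FMC 1 and lowest in an FM library, and their FMC means were 1.47 to 12.8 times their FM means.

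Most T cell markers were, like the antibody genes, highest in FMC 1, which was noticed in these values. Of the 10 T cell markers tested, 9 had a higher and 1 a lower mean log2 value in FMC, and the median log2 difference was 1.03. In the limma fit 0 of the 10 had an unadjusted p under 0.05. FMC 1 was the highest library for all 6 antibody genes, against 15.4% of all genes tested, and for 9 of 10 T cell markers. The summed T cell markers were 274 FPKM in FMC 1, 32.0 to 87.0 FPKM in the other FMC libraries and 27.2 to 37.1 FPKM in FM. FMC 4, with the second highest Igkc, was at 32.0 FPKM, inside the FM range. Cd3e was at 0.981 and 18.4 FPKM in the FM pair and, from FMC 1 through FMC 4, at 20.4, 0.908, 4.46 and 3.80 FPKM, Cd3d at most 6.98 FPKM and Cd3g at most 13.9 FPKM, and Cd3g is listed at 0 in FMC 2. Cd3e is the marker with the lower mean log2 value in FMC. Cd2 also had a lower mean in FPKM, at 3.10 in FM and 2.63 in FMC. For Lck and Cd5 each FMC library exceeded the FM pair, which held for 4.34% of all genes tested. Trac, the constant gene of the T cell receptor alpha chain, was at 8.93 and 7.89 FPKM in the FM pair and, from FMC 1 through FMC 4, at 137, 50.1, 32.0 and 4.88 FPKM. Lck, Cd5 and Trac were chosen after their values were seen. Microglia markers were high in all libraries: P2ry12 was between 185 and 403 FPKM and Tmem119 between 156 and 440 FPKM. The 10 markers of that list summed to 2873 to 5223 FPKM in FM and 2731 to 4240 FPKM in FMC. All 10 had a lower mean in FMC, with a median log2 difference of -0.22. The sum of 7 erythroid markers was 128 to 160 FPKM in FM and 25.3 to 33.0 FPKM in FMC. Neutrophil markers summed to 50.5 to 361 FPKM in FM and 66.4 to 488 FPKM in FMC, with FMC 1 highest. Oligodendrocyte, astrocyte and endothelial markers summed to at most 45.5, 144 and 30.1 FPKM. The astrocyte sum was mostly Slc1a3, at 104 to 130 FPKM over both groups. The number of genes at 1 FPKM or more was 15485 and 15511 in the FM pair and, from FMC 1 through FMC 4, 13643, 15346, 13333 and 14682, with no overlap. Of the 7 erythroid markers 5 had each FMC library below both FM libraries, against 8.22% of all genes tested. At an unadjusted limma p under 0.05, 5 were lower in FMC, against 765 of all 18208 genes tested. Limma called 0 genes of these lists at an adjusted p under 0.05. The part of these cell types and of the number of genes detected in the levels of the antibody genes was not tested.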

How the data were processed

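RNA of 6 libraries of sorted optic nerve microglia (2 FM, 4 FMC) was amplified with the Ovation RNA-Seq method and made into libraries with a paired-end protocol, per the labels' protocols. Cufflinks 2.0.2, Bowtie2 2.0.0, TopHat2 2.0.4, CASAVA 1.8.2 and the mm9 build are listed in the submitters' processing notes, with no roles. The deposited table gives FPKM values made by the authors, 1 column per library. Read totals, strand setting and filters are not given in the sources used here, so depth is unknown and precision is taken from the spread between libraries. Nothing in the labels says that libraries came from separate mice beyond the words biological replicate, so p-values measure the spread between these libraries.

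Values were tested across all genes as log2(FPKM + 1) with limma 3.58.1 in R 4.3.3 (intensity trend, two-sided, Benjamini-Hochberg, threshold 0.05), over the 18208 genes that reach 1 FPKM in 2 or more libraries. The 426 genes without a value in some library were left out. A fold on this scale understates the change of low genes. Sex was fitted with genotype kept. Tested on simulated data, the fit returned the changes put in on average, but called hardly any of the smaller ones and only part of the larger ones. FMC against FM chose the members, so their calls in it are counted as a description and no p of a single member is given. Named are all members, the other constant genes, list genes that pass or else the first 3 in list order for lymphocyte, antibody and microglia lists, and the genes most like Igkc; other marker lists are given as sums. Some genes this rule names are not reported here. Members and lists were chosen with earlier results of these data known. Of several rows with 1 gene name, that of highest mean FPKM was taken. Sequences were read with Python 3.11.15 from GENCODE M21 transcripts and aligned with Biopython 1.88. Alternatives changed the pseudocount, filter, scaling, trend and covariates, blocked by replicate number or title date, and left out each library.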

Additional observations from a re-analysis of the deposited data

Results flagged for a closer look

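In FMC, Ighg1 stood apart in FMC 1 at 423 FPKM, far from the next library by the gap relative to the range of the 4 libraries. Its share of the summed heavy chain FPKM in FMC 1, 27.6%, passed the same limit by a small margin. Of 14 quantities looked at in FMC these 2 passed, and chance alone picks out about 1 group in 20. The 2 are not separate, since the share is computed from the level. The cause was not tested.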

How the results depend on the processing

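Across all genes, limma called 0 higher and 5 lower in FMC (208 and 765 at an unadjusted p under 0.05). The 5, named after their values were seen, are SNORA40, SNORA19 and the clone-named AC122806.1, AC102205.1 and AC122327.1. The counts were 1 and 0 with a pseudocount of 0.1, 2 and 1 with title dates as a block, 0 and 10 without an intensity trend, and 0 lower with no filter, with a mean of at least 5 FPKM and with sex as a covariate. With 1 library left out they ran from 0 to 4 higher and 0 to 4 lower. For sex, the counts of 0 became 0 to 1 higher and 0 to 4 lower with 1 library left out. With the replicate number as a block, 0 genes were called higher and 0 lower in FMC; libraries that share a number had deviations correlated at 0.03 and -0.06, so the numbers were not read as pairs. The blocks could not be fitted for sex.

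Of the 6 antibody genes, Igkc, Ighm, Ighg2b and Igj kept a positive log2 difference between FMC and FM in all 15 alternatives, and Ighg1 in 12 (lowest -1.11). Ighg3 was at -1.55 with a pseudocount of 0.1 and negative in all 14 alternatives that test it. The Ighg3 share differed by -0.62 percentage points, and by -0.73 to -0.50 with 1 library left out. The Ighg2b share differed by 27.9 percentage points, and by 17.5 without FMC 4. The IgM share kept its direction in all 9 alternatives (-38.4 to -13.1 percentage points). The median difference of all genes moved from -0.12 to -0.01 with median ratio scaling and 0.04 with quantile normalization. Where FM has 1 library, it is assumed to vary like FMC.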

Other observations

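Between Ighg3 and Ighm on chromosome 12 the table has 2 predicted gene models. Gm11029 (114655094 to 114657149), named after its values were seen, was at 50.2 FPKM in FMC 1 and 14.1 FPKM in FMC 4, and is listed at 0 in FM 1, FM 2, FMC 2 and FMC 3. FMC 1 and FMC 4 are the libraries with the lowest IgM share. Gm17421 is listed at 0 in all libraries.

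The summed Igkv segments were 0.686 and 0.518 times the summed Ighv segments in FM, and 1.55, 1.37, 0.953 and 4.37 times in FMC 1 to FMC 4. The summed Ighv segments were 19.5 and 19.3 times the summed heavy chain constant genes in FM, and 17.9, 14.8, 13.1 and 6.84 times in FMC. These ratios had no overlap between the groups, with FMC 4 farthest from FM. The sums add many rows that are each scaled to their own length, so the ratios are read only as a change between libraries.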
